A study of Mus musculus with 20 samples.

Results

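The FMRP precipitates of Fmr1 knockout neurons were set against those of wild-type neurons across every feature of the array, and the differences were described by what the genes do. The members are the 10 CLIP arrays, out of 20 arrays in the series, 5 from KO-Fmr1 cultures and 5 from wild-type cultures. CLIP stands for crosslinking and immunoprecipitation, in which ultraviolet light ties proteins to the RNA they touch before a protein is pulled out with its RNA. All 10 cultures were primary cortical neurons of mouse embryos on a C57Bl6 background, taken at day 17 of gestation, grown for 8 days and irradiated at 254 nm. Each culture also gave an Input array of its total RNA. The labels name no further allele, treatment or antibody, and they do not say how many embryos went into a culture.

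FMRP, the product of Fmr1, is an RNA-binding protein that associates with polyribosomes and represses the translation of many neuronal mRNAs. Its loss causes fragile X syndrome in people. Knockout neurons lack FMRP by design, so their precipitate holds RNA recovered without the target protein. The comparison therefore asks which RNAs were less abundant in the precipitate when FMRP was missing. The arrays were scaled to similar medians, so a value gives the share of an RNA in a precipitate relative to the other RNAs, not the amount of RNA recovered.

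Values are log2 signals of 24551 features, a feature being a group of probes that mostly covers 1 gene, and differences are knockout minus wild type. The 10 CLIP arrays were close to each other. Pearson's r across features, which are not independent replicates, had a median of 0.987 among knockout arrays, 0.987 among wild-type arrays and 0.985 between the genotypes. The widest variation among the CLIP arrays did not follow genotype. The first principal component carried 35.0% of the variance, with knockout arrays 1 and 5 and wild-type array 1 at one end and knockout array 4 and wild-type arrays 2 and 3 at the other. Knockout array 4 and wild-type array 1 deviated furthest from their group means, with SDs over features of 0.266 and 0.274, and results are given without this pair in the closing section.

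In CLIP, 25 features of 24 genes fell in the knockout and 2 rose at a limma adjusted p under 0.05, adjusted over all features. These are 0.102% and 0.00815% of the features tested, 27 features or 0.11% together. The 25 had a median difference of −0.75, and in 4 of them the difference went beyond 1 log2 unit. By a second, test-free count, all 5 knockout values lay below all 5 wild-type values for 332 features (1.35%) and above them for 75 features (0.305%). With quantile normalization these counts were 274 and 113. At an unadjusted p under 0.05 there were 1165 lower (4.75%) and 591 higher (2.41%) features. All 27 features past the threshold were among those with no overlap between genotypes. The calls depended on single arrays. Of the 27, the number that passed again was 10, 7, 6, 13 and 6 without knockout arrays 1 to 5, and 8, 22, 6, 5 and 4 without wild-type arrays 1 to 5. Fmr1, Dgkk, 2610507B11Rik and Spnb1 passed in all 10 of these fits, Akap6 in 9, Unc13c in 8 and Fat3 in 4. Of the others that fell, 17 features passed in 3 of them at most.

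**Figure D1:**
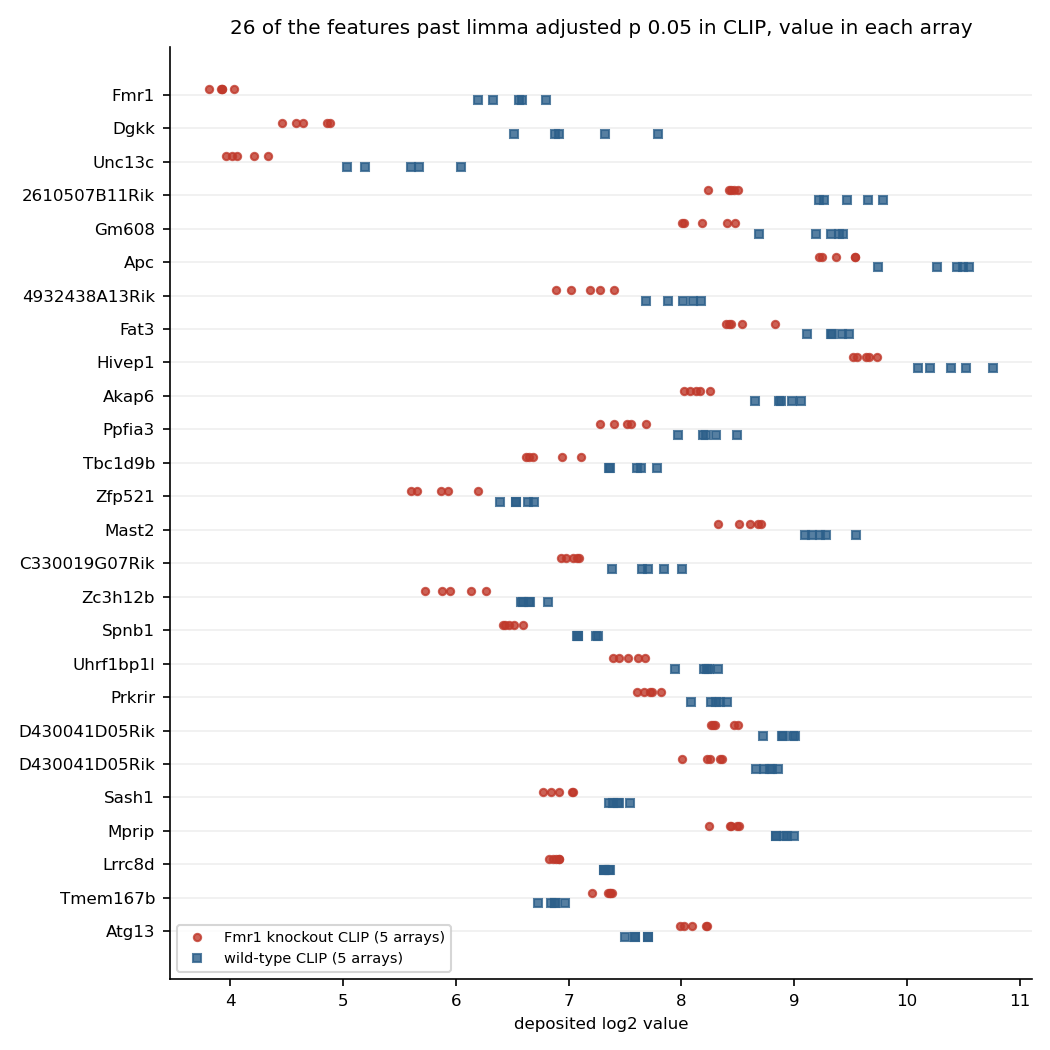
Deposited log2 value of 26 of the 27 features past limma adjusted p 0.05 in each CLIP array, with the 5 knockout arrays as circles above the 5 wild-type arrays as squares in each row. The circles and squares of every row stand apart. Rows run from the most negative difference (Fmr1, −2.57) to the 2 positive ones at the bottom.

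The gene that was deleted gives the check of the labels. Fmr1 read 3.92, 3.81, 3.93, 4.03 and 3.93 in knockout CLIP arrays 1 to 5, against 6.59, 6.20, 6.33, 6.80 and 6.56 in wild-type CLIP. Its difference was −2.57 (SE 0.11, limma adjusted p = 4.82e-07), and it was also the 1 feature (0.00407%) past the threshold in Input, at −1.55 (limma adjusted p = 6.35e-04). As a gauge of the bottom of the scale, the 1108 features of olfactory receptor genes, known for the nose, had a median CLIP level of 3.29, with 2.61 and 4.65 as the 5th and 95th percentiles. Differences that end in this region are compressed.

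Dgkk, diacylglycerol kinase kappa, belongs to the enzymes that turn the second messenger diacylglycerol into phosphatidic acid. It read 4.64, 4.58, 4.46, 4.88 and 4.86 in knockout CLIP, against 7.79, 6.52, 6.92, 6.88 and 7.33 in wild-type CLIP. Its difference was −2.40 (SE 0.20, limma adjusted p = 5.47e-04). In Input the same feature averaged 4.40 in knockout and 4.34 in wild type, near the bottom of the scale, and the gap between the CLIP and the Input difference was −2.46 (limma adjusted p = 3.9e-05). Of the 4 groups of arrays, wild-type CLIP was the one in which Dgkk read above 6. The file annotates Dgkk to kinase activity but not to diacylglycerol kinase activity. The 13 genes carrying the more specific term had a median difference of 0.024, above the −0.019 of all genes. Dgkz (−0.50) and Dgkd (−0.28), other kinases of this family, had knockout arrays all below wild-type arrays without passing limma (adjusted p = 0.232 and 0.551).

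Genes of the presynaptic terminal were represented by Unc13c and Ppfia3. Unc13c, which encodes the vesicle-priming protein Munc13-3, read 4.02, 4.33, 3.96, 4.06 and 4.21 in knockout CLIP, against 6.04, 5.19, 5.04, 5.67 and 5.60 in wild-type CLIP. The difference was −1.39 (SE 0.17, limma adjusted p = 0.0105). Unc13c has 7 features, of which all were lower in knockout CLIP (−1.39 to −0.13) and 3 showed no overlap. Ppfia3, the active-zone scaffold liprin-alpha-3, read 7.41, 7.68, 7.55, 7.28 and 7.52 in knockout CLIP, against 8.19, 7.97, 8.22, 8.31 and 8.50 in wild-type CLIP. It fell by 0.75 (SE 0.11, limma adjusted p = 0.033) and differed by 0.18 in Input.

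Genes of the submembrane and actin cytoskeleton formed a second group. Spnb1 (current name Sptb), a beta spectrin of the membrane skeleton, read 6.47, 6.43, 6.42, 6.60 and 6.52 in knockout CLIP, against 7.08, 7.08, 7.26, 7.24 and 7.08 in wild-type CLIP. It fell by 0.66 (SE 0.08, limma adjusted p = 0.00978). Another beta spectrin, Spnb2 (Sptbn1), was lower by a smaller amount and did not pass, at 10.47 to 10.65 in knockout CLIP and 10.74 to 10.88 in wild-type CLIP (−0.24, limma adjusted p = 0.315). Mprip, which brings myosin phosphatase to actin, ranged from 8.24 to 8.51 in knockout CLIP and from 8.84 to 9.00 in wild-type CLIP (−0.48, limma adjusted p = 0.0432). The microtubule-associated kinase gene Mast2 ranged from 8.32 to 8.70 in knockout CLIP and from 9.10 to 9.55 in wild-type CLIP (−0.70, limma adjusted p = 0.0401). Apc, a Wnt pathway inhibitor that also binds microtubule ends, ranged from 9.22 to 9.54 in knockout CLIP and from 9.74 to 10.55 in wild-type CLIP (−0.92, limma adjusted p = 0.0432).

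Several large scaffold, adhesion and membrane proteins came next. Akap6, an anchor of protein kinase A, read 8.25, 8.16, 8.13, 8.07 and 8.02 in knockout CLIP, against 8.88, 8.66, 9.06, 8.86 and 8.98 in wild-type CLIP (−0.76, SE 0.09, limma adjusted p = 0.00978). Fat3, a giant cadherin of the Fat family, read 8.83, 8.43, 8.40, 8.44 and 8.54 in knockout CLIP, against 9.34, 9.11, 9.33, 9.49 and 9.43 in wild-type CLIP (−0.81, SE 0.10, limma adjusted p = 0.0162). Fat3 is spread over 15 features, all lower in knockout CLIP (−1.29 to −0.27), 5 of them without overlap. Lrrc8d, a subunit of the volume-regulated anion channel, ranged from 6.82 to 6.92 in knockout CLIP and from 7.31 to 7.36 in wild-type CLIP (−0.45, limma adjusted p = 0.0329). Tbc1d9b, of the family that switches off Rab GTPases, ranged from 6.62 to 7.11 in knockout CLIP and from 7.35 to 7.79 in wild-type CLIP (−0.75, limma adjusted p = 0.0432). Sash1, an adaptor protein with SAM and SH3 domains, fell by 0.52 (limma adjusted p = 0.0406) in 1 of its 2 features.

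Genes of transcription and RNA control made up another part of the 25. Hivep1, a zinc finger transcription factor, read 9.56, 9.64, 9.66, 9.52 and 9.73 in knockout CLIP, against 10.76, 10.10, 10.52, 10.21 and 10.39 in wild-type CLIP (−0.77, limma adjusted p = 0.0406). Zfp521, also a zinc finger protein, fell by 0.71, with −0.32 in Input. Gm608 (Usf3) fell by 0.99, Prkrir (Thap12) by 0.57 and Zc3h12b, of the Regnase family of RNA-cleaving proteins, by 0.67 (limma adjusted p between 0.0329 and 0.0432 for these). In Input, Prkrir and Zc3h12b differed by −0.22 and −0.31, while Gm608 differed by 0.22.

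The remaining features that fell belong to genes with few annotations. Of the 25, 7 features of 6 genes carry no GO term in the file beyond the root terms. 2610507B11Rik read 8.44, 8.47, 8.51, 8.42 and 8.23 in knockout CLIP, against 9.66, 9.22, 9.79, 9.26 and 9.47 in wild-type CLIP. Its difference was −1.07 (SE 0.12, limma adjusted p = 0.00692) and ran against 0.22 in Input. 4932438A13Rik is listed by RefSeq with the synonym Tweek, the name of a Drosophila gene that acts in synaptic vesicle recycling. It has 19 features, all lower in knockout CLIP, 7 of them without overlap, and the one that passed had a difference of −0.82 (limma adjusted p = 0.035). Uhrf1bp1l fell by 0.66, C330019G07Rik (Prr14l) by 0.69, and D430041D05Rik by 0.54 and 0.53 in its 2 features (limma adjusted p between 0.0329 and 0.0432).

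The 2 genes that rose were Tmem167b and Atg13. Tmem167b, annotated to the Golgi apparatus, read 7.38, 7.21, 7.35, 7.37 and 7.37 in knockout CLIP, against 6.73, 6.88, 6.88, 6.84 and 6.97 in wild-type CLIP (0.47, SE 0.08, limma adjusted p = 0.0432). Atg13, part of the kinase complex that starts autophagy, read 8.22, 8.03, 7.99, 8.23 and 8.09 in knockout CLIP, against 7.71, 7.59, 7.50, 7.59 and 7.70 in wild-type CLIP (0.49, SE 0.08, limma adjusted p = 0.0457). Neither passed in any of the 10 fits without 1 array. Both were higher in Input too, by 0.09 and 0.22, without passing there.

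In Input, the 25 features that fell in CLIP were centred near 0. They had a median Input difference of −0.01, and 13 of the 25 were below 0 in Input. Leaving out Fmr1, their Input differences ranged from −0.32 to 0.22. The genotype difference in CLIP departed from that in Input for 5 features (0.0204%) by limma's interaction contrast over all 20 arrays, namely Fmr1, Dgkk, 2610507B11Rik, Unc13c and Ppfia3, all among the 25. For the others the difference between fractions did not pass. This contrast took the 20 arrays as independent and did not pair the CLIP and Input arrays of a culture. The 25 features lay on 14 chromosomes, 3 of them on X (Fmr1, Dgkk and Zc3h12b).

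**Figure D2:**
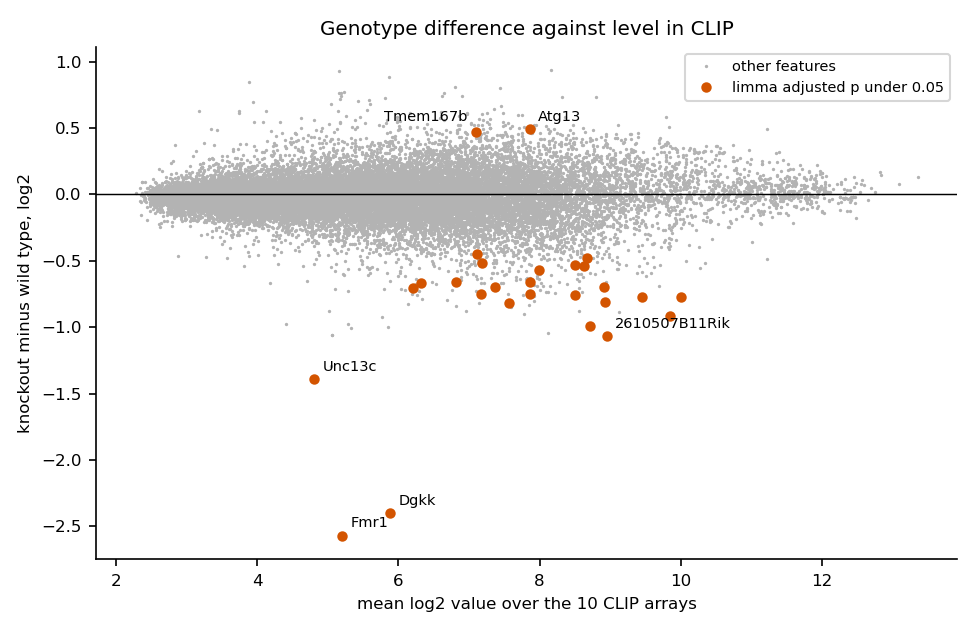
Knockout minus wild type in CLIP (vertical, log2) against the mean log2 value over the 10 CLIP arrays (horizontal) for all 24551 features, with the 27 past limma adjusted p 0.05 as filled circles. Fmr1, Dgkk and Unc13c stand at low mean levels with the widest differences, and most other marked features lie between 6 and 10.

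Below the threshold, 8 further genes are named on the lower side by their p, none of which passed. Pkp4, a plakophilin of cell junctions, had a difference of −0.88, with 8.47 to 8.92 in knockout CLIP and 9.10 to 9.91 in wild-type CLIP (limma adjusted p = 0.0547). Wwc1, the Hippo pathway and memory-associated protein KIBRA, had −0.63, and Trak2, which links mitochondria to kinesin motors, had −0.80 (limma adjusted p = 0.0596 for both). Arhgap20, a GTPase-activating protein, had −0.67, and the exchange factors Arhgef7 (beta-PIX, for Rac and Cdc42) and Ralgds (for Ral) had −0.44 and −0.66 (limma adjusted p between 0.0671 and 0.0704). Ankrd13c had −0.58 with nearly the same difference in Input (−0.54), and Igsf10 had −0.92.

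On the higher side, the next 8 features also did not pass. Ptges3, a co-chaperone of Hsp90, had a difference of 0.49, the synaptic scaffold gene Lin7c 0.39 and Mtpn, a regulator of actin capping, 0.39 (limma adjusted p between 0.103 and 0.104). Atp6v0b, a subunit of the vacuolar proton pump, had 0.41, Gstp1 0.41 and the kinase gene Csnk1d 0.43 (limma adjusted p between 0.113 and 0.148). Hnrnpa1, a splicing regulator, had 0.34 in the feature of lower p, and Gm10052 had 0.35. A further feature of Hnrnpa1, named as a member of GO terms, had 0.35. RefSeq lists Gm10052 as a transcribed pseudogene, and the probes of these 3 features may share RNA, so they are uncertain as separate genes.

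By GO term, the broad shape of the comparison was a set of small shifts. Over all 21301 genes (the mean of the features of a symbol, the feature without a symbol counted as 1) the median difference was −0.019, and 57.0% of genes were below 0. Of 123 GO terms with at least 10 genes, 55 had a median below that of all genes and 68 above it, between −0.14 and 0.084. GO terms share genes, and 5306 features (21.6%) have no term beyond the root terms (biological process, cellular component and molecular function), so these counts are descriptions with no test.

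**Figure D3:**
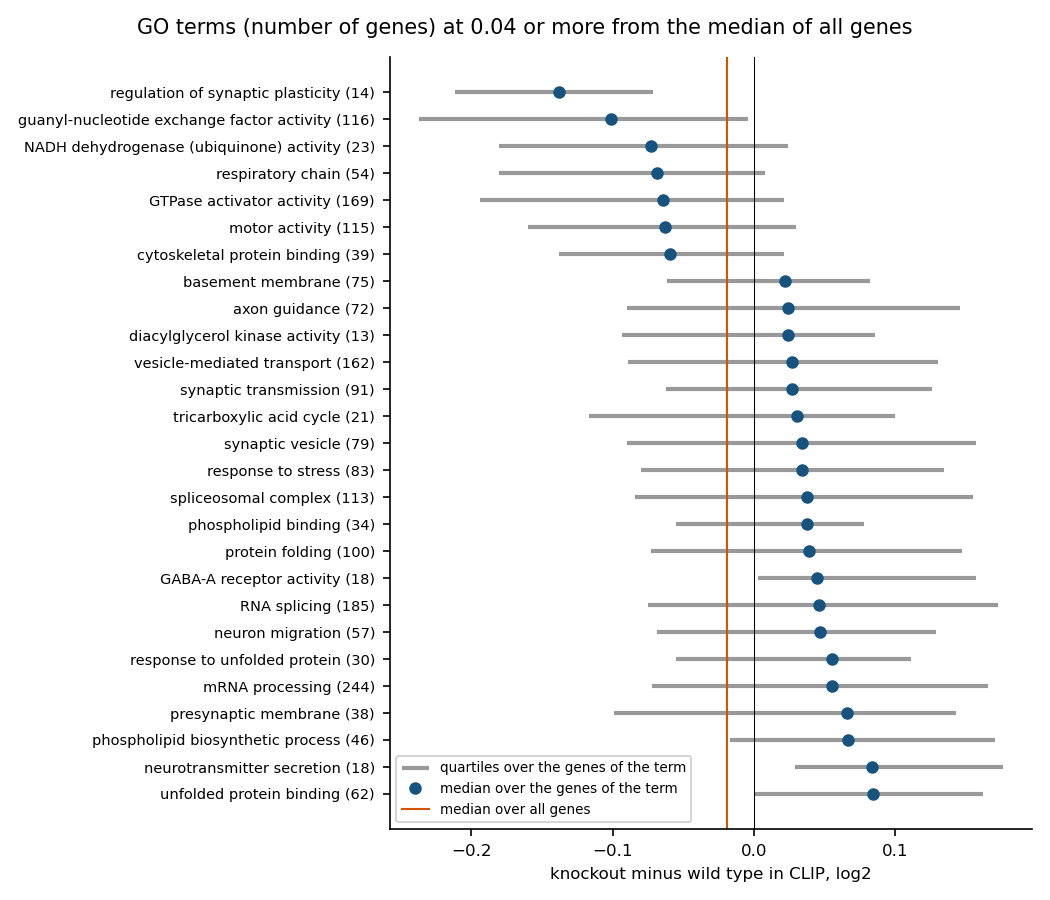
Median (point) and quartiles (bar) over the genes of a GO term of the knockout minus wild-type difference in CLIP (log2), for reported terms at 0.04 or more from the median of all genes (orange line, −0.019). GTPase regulator and motor terms lie to the left of the line and folding, mRNA processing and secretion terms to the right.

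GTPase regulators lay on the lower side. Guanyl-nucleotide exchange factors switch small GTPases on, and GTPase activators switch them off. The 116 genes of guanyl-nucleotide exchange factor activity had a median of −0.10, and 75.9% of them were below 0. In 7 of their 146 features (4.79%) all knockout arrays were below all wild-type arrays, and in 0 were they above. Over all features these shares were 1.35% and 0.305%. Rapgef1 (−0.43), an exchange factor for Rap, ranged from 6.99 to 7.45 in knockout CLIP and from 7.52 to 7.96 in wild-type CLIP. None of the exchange factors passed limma.

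GTPase activator activity (169 genes) had a median of −0.064, and 14 of its 197 features (7.11%) had all knockout arrays below all wild-type arrays, against 1.35% of all features. Tbc1d9b passed limma. Asap1, an activator for Arf GTPases, ranged from 7.64 to 7.99 in knockout CLIP and from 8.14 to 8.41 in wild-type CLIP (−0.48, limma adjusted p = 0.0997). Regulation of small GTPase mediated signal transduction (33 genes) had −0.15, the lowest median among all terms of at least 30 genes. Its members with all knockout arrays below included Iqgap2 (−0.39) and Sipa1l1 (−0.36), the latter an activator for Rap at the postsynaptic density. The broader term small GTPase mediated signal transduction, which holds GTPases as well as regulators, had a median of 0.0014 over 185 genes. Even so, 7 of its 196 features (3.57%) had knockout arrays below and 0 above, against 1.35% and 0.305% of all features. Arhgef7, Ralgds and Iqgap2 were among the 7.

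The array medians of the GTPase regulators did not overlap between genotypes. The exchange-factor genes had an array median between −0.082 and −0.050 in the 5 knockout arrays and between 0.00020 and 0.14 in the 5 wild-type arrays, relative to each gene's mean over the 10 arrays. The activators had −0.066 to −0.035 in knockout CLIP and −0.0028 to 0.095 in wild-type CLIP. Array medians were apart in this way, knockout below wild type, for 4 of the 123 terms (3.25%), among them these and cytoskeleton, and in 0 terms was the knockout above. In Input the exchange factors had a median of 0.017 and the activators 0.027, close to the 0.012 of all genes. Their features had median gene spans of 85.6 kb for exchange factors and 79.1 kb for activators, against 18.1 kb over all features, and their genes had median CLIP levels of 6.40 and 6.15, against 5.30 over all genes. The part of gene length and level in the shift was not tested.

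**Figure D4:**
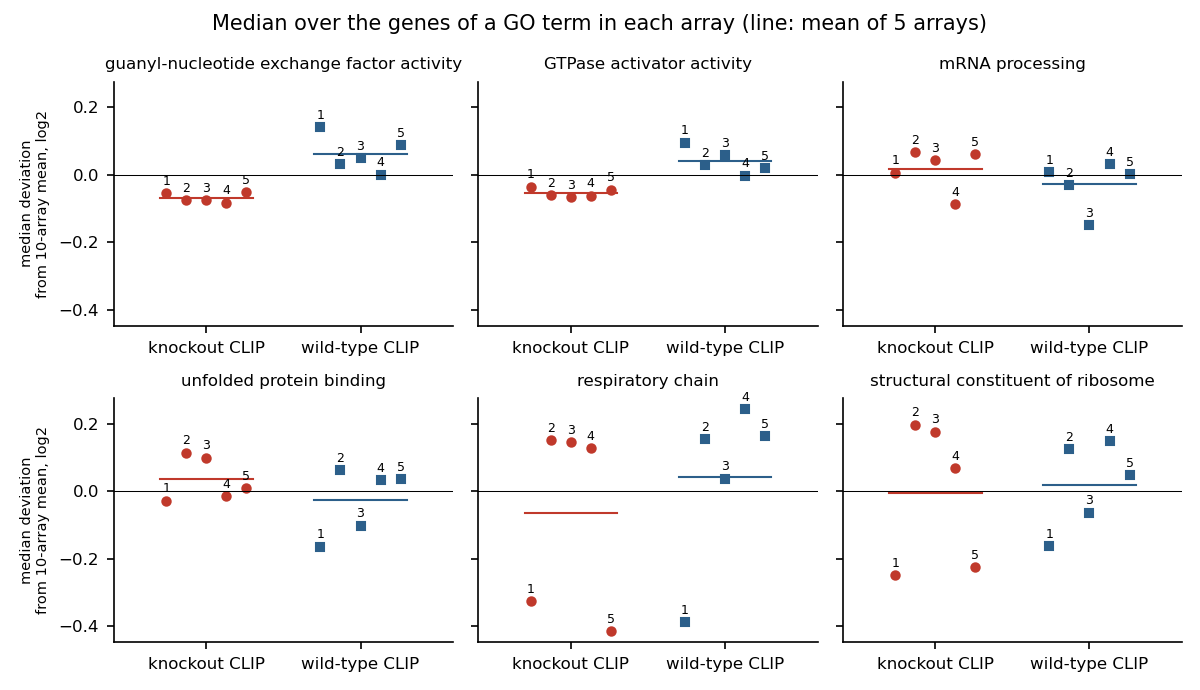
Median over the genes of 6 GO terms in each CLIP array, as the log2 deviation from each gene's mean over the 10 arrays, with knockout arrays left of wild-type arrays and the array number beside each point. Points of exchange factors and GTPase activators do not overlap between genotypes, whereas in the respiratory chain and ribosome terms arrays 1 and 5 of the knockout and 1 of the wild type lie below the rest.

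Cytoskeletal terms lay on both sides of the median of all genes. Microtubule binding (55 genes) had a median of 0.0033 and structural constituent of cytoskeleton (28 genes) −0.014, both above it. In the 10 fits without 1 array, the first stayed above in 10 and the second in 6. Microtubule (233 genes) had −0.022 and was on the lower side in 4 of these fits. The cytoskeleton term (664 genes) had a median of −0.029, but without knockout array 4 and wild-type array 1 its −0.041 lay above the −0.049 of all genes. Actin binding (263 genes) had −0.056, with Spnb1 and Mprip among its members past limma. Motor activity (115 genes) had −0.063. Of its 165 features, 6 (3.64%) had knockout arrays below and 0 above, against 1.35% and 0.305% of all features. The myosins Myo5b (−0.49), Myo16 (−0.38) and Myo7a (−0.44) and the kinesins Kif13a (−0.66) and Kif1a (−0.36) were among the non-overlapping members. Kif1a, the motor that carries synaptic vesicle precursors, ranged from 10.60 to 10.96 in knockout CLIP and from 11.07 to 11.29 in wild-type CLIP. Actin-binding genes also included non-overlapping members on the other side, Tmod3 (0.43), Tpm1 (0.25) and Tpm3 (0.33), none of which passed.

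Synaptic terms held genes on both sides, and their medians ran from −0.14 to 0.084. Those of synapse, postsynaptic density and postsynaptic membrane were near that of all genes. The synapse term (296 genes) had a median of −0.0040. Of its 323 features, 14 (4.33%) had knockout arrays below and 4 (1.24%) above, against 1.35% and 0.305% of all features. The 14 include the deleted gene Fmr1, and features of the same gene are counted apart. The term's features had a median span of 69.0 kb, against 18.1 kb, and its genes a median CLIP level of 6.94, against 5.30. The part of span and level in these shares was not tested. Fmr1, Unc13c and Apc passed limma. The postsynaptic density (76 genes) had a median of −0.0089 and the postsynaptic membrane (158 genes) 0.0014, both above that of all genes. Among their separated features on the lower side, the scaffold gene Shank3 ranged from 6.38 to 6.67 in knockout CLIP and from 6.89 to 7.44 in wild-type CLIP (−0.57, limma adjusted p = 0.0997), and Dlgap3 had −0.51. Arhgap32, a GTPase activator of the postsynaptic density, had −0.73. The presynaptic membrane (38 genes) had a median of 0.066, with the vesicle protein Syp at 0.41, the calcium sensor Syt1 at 0.24 and the glutamate transporter Slc1a2 at 0.26 in the features whose knockout arrays were all above. Neurotransmitter secretion (18 genes) had a median of 0.084, and of 0.11 in Input. Regulation of synaptic plasticity (14 genes) had −0.14, and 0.030 in Input, with 92.9% of its genes below 0 in CLIP but array medians that overlapped.

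Several channel terms had shares of separated features close to the 1.35% of all features below. Ion channel activity had 6 of 342 features (1.75%) with knockout arrays below, sodium ion transport 2 of 147 (1.36%) and calcium ion transport 1 of 109 (0.917%). Voltage-gated calcium channel activity had 0 of 26, too few features to read against that share. Voltage-gated potassium channel activity had 6 of 75 features (8.00%) with knockout arrays below and 0 above, among them Kcnh3 (−0.54), Hcn2 (−0.60) and Kcnh1 (−0.75). Kcnh1 ranged from 5.62 to 6.04 in knockout CLIP and from 6.10 to 6.90 in wild-type CLIP. Protein serine/threonine kinase activity (393 genes) had a median of −0.044 (−0.028 without knockout array 4 and wild-type array 1, above all genes). Of its 432 features, 14 (3.24%) were below and 2 (0.463%) above, against 1.35% and 0.305% of all features. Mast2 passed limma, Ulk2 (−0.64) and Wnk2 (−0.41) did not, and Csnk1d was among the 2 above. Ionotropic glutamate receptor activity (18 features) had a median of 0.021 and GABA-A receptor activity (21 features) 0.045. Both had 0 separated features, but terms of this size are too small to read against 1.35%.

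Nuclear and RNA-related terms both lay on either side of the median of all genes. Chromatin binding (153 genes) had a median of −0.056, which came to −0.049, level with all genes, without knockout array 4 and wild-type array 1. The coactivator Ncoa1 was among its separated features, at −0.48. The term mRNA processing (244 genes) had 0.055 and RNA splicing 0.046. Other RNA-related terms had medians on the lower side, translation initiation factor activity (58 genes) at −0.058 and translation (214 genes) at −0.023. In the 10 fits without 1 array, the initiation factors were on the lower side in 7 and translation in 4. The array medians of translation overlapped, at −0.14 to 0.13 in knockout CLIP and −0.13 to 0.14 in wild-type CLIP. Without knockout array 4 and wild-type array 1 the initiation factors had −0.045, above all genes. Of the 246 features of RNA splicing, 2 (0.813%) were separated below and 4 (1.63%) above, against 1.35% and 0.305% of all features. Those below were the spliceosome core gene Prpf8 (−0.44) and Dhx8 (−0.33). Those above included Hnrnpc (0.28) and 2 features of Hnrnpa1, so the 4 are not separate genes. The knockout level of Prpf8 ranged from 8.28 to 8.83, against 8.98 to 9.16 in wild-type CLIP.

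Unfolded protein binding, the chaperone term, had with neurotransmitter secretion the highest median of the 123 terms, 0.084 over 62 genes with 25.8% below 0. Among all terms of at least 30 genes, amino acid transmembrane transport (35 genes) had the highest, 0.12. In Input its median was 0.13 and that of neurotransmitter secretion 0.11, so both terms were also higher in total RNA. Unfolded protein binding had −0.017 in Input, against 0.012 for all genes. Calr, the endoplasmic reticulum chaperone calreticulin, ranged from 9.82 to 10.02 in knockout CLIP and from 9.07 to 9.77 in wild-type CLIP (0.42, limma adjusted p = 0.342). The array medians of unfolded protein binding overlapped, at −0.027 to 0.11 in knockout CLIP and −0.16 to 0.062 in wild-type CLIP.

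Respiratory chain and ribosome terms varied more between arrays than between genotypes. Respiratory chain genes (54) had array medians of −0.32, 0.15, 0.15, 0.13 and −0.41 in knockout CLIP 1 to 5, and −0.39, 0.15, 0.038, 0.24 and 0.16 in wild-type CLIP 1 to 5. Knockout arrays 1 and 5 and wild-type array 1, which share an end of the first principal component, were the low ones. Structural constituents of the ribosome were low in the same 3 arrays, from −0.25 to −0.16. Without knockout array 4 and wild-type array 1 the respiratory chain median was −0.26 between genotypes. In both terms 0 features had separated genotypes. In Input the median of the respiratory chain term was −0.21.

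The share of features lower in the knockout grew with level and with gene span. All knockout arrays were below all wild-type arrays for 0.650% of features with a mean CLIP level under 4, 0.561% at 4 to 6, 2.19% at 6 to 8 and 4.09% at 8 to 10, but 0.982% at 10 and over. In that highest stratum the opposite order was more frequent, at 1.54%. By the genomic span of the gene in RefSeq (GRCm38.p6), the share was 0.596% under 10 kb, 0.760% at 10 to 30 kb, 1.79% at 30 to 100 kb, 4.14% at 100 to 300 kb and 3.85% at 300 kb and over. The share in the opposite order lay between 0.128% and 0.388% with no such rise. The 25 features that fell had a median span of 130.1 kb, and none of their genes was under 10 kb.

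**Figure D5:**
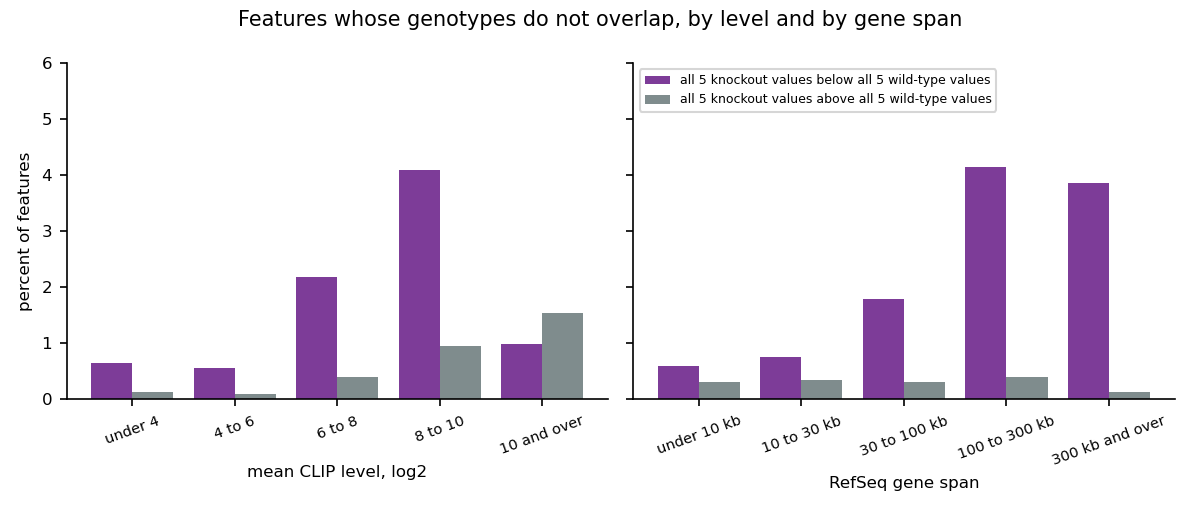
Percent of features in which all 5 knockout arrays lie below (purple) or above (grey) all 5 wild-type arrays, by mean CLIP level (left) and by RefSeq gene span (right). The purple bars grow to 4.09% at levels of 8 to 10 and to 4.14% at spans of 100 to 300 kb.

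The labelled cell type was checked on markers. The 9 neuron markers (Map2, under its older symbol Mtap2, Tubb3, Rbfox3, Snap25, Syt1, Slc17a7, Slc17a6, Gad1 and Gad2) had a mean level of 8.51 to 8.67 in knockout CLIP and 8.31 to 8.49 in wild-type CLIP. These ranges did not overlap, 7 of the 9 genes were higher in knockout CLIP, and 0 passed limma. Tubb3, a neuronal tubulin, read 9.99, 10.18, 10.18, 9.93 and 10.16 in knockout CLIP, against 9.13, 9.87, 9.39, 9.64 and 9.88 in wild-type CLIP, and was 0.25 higher in Input. The 8 astrocyte markers averaged 6.37 to 6.76 in knockout CLIP and 6.13 to 6.47 in wild-type CLIP. Of them, 2 were lower in knockout CLIP, S100b (−0.35) and Aldh1l1 (−0.11). Gfap had the widest difference, 0.68, with 0.66 in Input. Microglia markers averaged 4.43 to 4.57 in knockout CLIP and 4.39 to 4.66 in wild-type CLIP, close to the bottom of the scale. Oligodendrocyte lineage markers averaged 5.87 to 6.12 in knockout CLIP and 6.04 to 6.20 in wild-type CLIP, and endothelial and meningeal markers 4.56 to 4.92 in knockout CLIP and 4.46 to 4.71 in wild-type CLIP. Blood markers averaged 4.72 to 5.05 in knockout CLIP and 4.73 to 5.11 in wild-type CLIP, and cycling progenitor markers 5.93 to 6.25 in knockout CLIP and 6.05 to 6.36 in wild-type CLIP. In each of these lists 0 features passed limma. These levels are shares of a precipitate, so the recovery of an RNA enters them too. In such bulk samples fewer cells of a type, less RNA per cell and lower recovery cannot be told apart. The part of cell makeup in the differences was not tested.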

How the data were processed

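The values are the authors' deposited log2 values of 20 Affymetrix arrays (24551 features after 7 summary lines were dropped), made with Expression Console 1.1 and RMA per the submitters' processing notes. The design text names the Exon Array Computational Tool. For the genome build, nothing is stated in those sources. A further 10 per-sample columns were not used. NuGEN kits amplified and labelled the RNA, per the labels' protocols, and the 5 samples of a group are separate cultures. Gene names and spans came from RefSeq (23785 features matched). Genotypes were compared with limma 3.58.1 under R 4.3.3 (linear fit with eBayes, two-sided, Benjamini-Hochberg over all features, threshold 0.05). The Input and interaction contrasts used 10 and 20 arrays, the latter without pairing the CLIP and Input arrays of a culture. Python 3.11.15, pandas 2.3.3, numpy 2.4.6 and matplotlib 3.10.9 did the rest. With 5 arrays a group, their number limits the precision. On simulated data for the CLIP comparison, with changes spiked into the 24551 features, differences of 0.5, 1 and 2 log2 were recovered for 38.6%, 94.3% and 98.3% of changed features. There were 9 false calls. The simulated noise was normal and independent between features, without the variation that features share in the real arrays, so recovery there may differ.

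Named were Fmr1, Dgkk and features past the threshold, the 8 next in each direction whose groups do not overlap, up to 3 separated members per GO term and direction, and the 3 lowest and highest terms of at least 30 genes in each GO column. Marker genes are named by their lists. A few genes and a GO term that this rule would name are not reported here. GO terms and lists were chosen with earlier results of these data known. Alternatives were quantile and median scaling, a level filter, moderated trend and robust fits, a fit to all arrays, a replicate block and leaving out arrays.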

Additional observations from a re-analysis of the deposited data

Results flagged for a closer look

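The genotype difference in CLIP departed from that in Input, by limma's interaction contrast, for 5 features. The gap between the 2 differences was −1.02 for Fmr1, −2.46 for Dgkk, −1.28 for 2610507B11Rik, −1.50 for Unc13c and −0.93 for Ppfia3. One single value stood apart from the rest of its group: Tmem167b read 7.21 in knockout CLIP array 2, with the other 4 knockout arrays between 7.35 and 7.38. That is 1 flag in 54 groups tested, where chance gives about 1 in 20.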

How the results depend on the processing

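With 5 arrays a group, the number of features past limma's threshold depended on the processing. The 27 became 14 with quantile normalization, 8 with array medians subtracted, 13 with eBayes trend and robust, and 42 without knockout array 4 and wild-type array 1 together, an alternative chosen after seeing the data. Without 1 array at a time it ranged from 4 (without wild-type array 5) to 61 (without wild-type array 2). Those that fell, 25, became 14, 8 and 13 under the first 3 of these settings, with 4 to 61 without 1 array. Those that rose, 2, became 0 with quantile normalization, array medians subtracted, the level filter, eBayes trend and robust and the fit to all 20 arrays, 22 without knockout 4 and wild-type 1, and 0 to 4 without 1 array. Of the 27 named features, 14, 8, 13 and 11 passed with quantile normalization, array medians subtracted, eBayes trend and robust and the fit to all 20 arrays, 10 without knockout 4 and wild-type 1, and 4 to 22 without 1 array. Separated features numbered 1207 below and 858 above without knockout 4 and wild-type 1, a count that fewer arrays raise by construction. Without 1 array they were 412 to 611 below and 107 to 313 above, and quantile normalization gave 113 above. GO terms below the median of all genes numbered 44 to 62 without 1 array. Of the 123 terms, 34 changed side without knockout 4 and wild-type 1, 2 with quantile normalization, and 52 kept their side in all 10 fits without 1 array. The cytoskeleton term was below in 8 of 10 such refits, and exchange factors and GTPase activators in all 10. Where no cause is given, the cause was not tested.

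Replicate numbers are shared between genotypes. Deviations of same-numbered knockout and wild-type CLIP arrays correlated at 0.442, 0.19, −0.139, −0.085 and −0.075. Differently numbered arrays ranged from −0.514 (knockout 4 with wild-type 1) to 0.585 (knockout 4 with wild-type 3). These correlations cannot settle whether same-numbered cultures were prepared together, and the main fit did not pair them. With the replicate block, 3 features passed, 3 lower and 0 higher, 3 of them among the 27.

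Among single features, 427 alternatives kept direction and side of the threshold, 293 lost the call, 11 gained it and 0 reversed. These cover the 27 features past the threshold and the 8 next in each direction, which had not passed. The 427 therefore include features that stayed short of the threshold and are not a count of calls that held. All 293 lost calls fall on the 27.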
